A study of Homo sapiens with 6 samples.

Results

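The epithelial regulators are 10 genes, GRHL1, GRHL2, GRHL3, ESRP1, ESRP2, OVOL1, OVOL2, ELF3, EHF and KLF5, taken by their gene symbols from the 42540 rows of a count table of 6 RNA-seq libraries. Each of the 10 symbols stood on 1 row, 8 had at least 1 count, and GRHL2 and OVOL1 had 0 counts in all 6 libraries. The cells were MiaPaCa2, a human pancreatic ductal adenocarcinoma (PDAC) line of mesenchymal character. All libraries, controls included, came from cells that stably carried CasRx, an RNA-cutting nuclease of the Cas13d family, put in with a transposon. The 3 control libraries had CasRx and no guide RNA, and the 3 knockdown libraries came from a puromycin-selected population with a lentiviral guide against PPP2R1A, the scaffold subunit of the phosphatase PP2A. Libraries 1, 2 and 3 of each group were collected over 3 weeks from the same line, so the spread behind each p-value is that among these libraries and may be technical.

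Epithelial cells keep their identity through a small circuit of transcription factors and splicing factors. Grainyhead-like factors (GRHL1, GRHL2, GRHL3) open chromatin at junction genes, OVOL1 and OVOL2 are zinc finger repressors that hold down ZEB1, and the ETS factors ELF3 and EHF and the Krüppel-like factor KLF5 drive genes of glandular and squamous epithelium. ESRP1 and ESRP2 bind pre-mRNA and select the epithelial exons of genes such as FGFR2 and CD44. ZEB and SNAI factors, which drive the epithelial-to-mesenchymal transition (EMT), bind E-box motifs and repress many of the same epithelial genes.

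Depth was 28499214 to 34774074 counts in the control libraries and 33233796 to 45040033 in the knockdown libraries. PPP2R1A checked the labels: its level was 590 to 648 CPM (counts scaled to the library size after TMM normalization) in the controls, 143 CPM in both knockdown 1 and knockdown 2, and 545 CPM in the library labelled knockdown 3, which thus stood near the controls. Control 3 also differed from controls 1 and 2, for instance with 34.7 CPM of the desmosome gene PKP2 where controls 1 and 2 had 0 and 0.0721. The study left out the third knockdown sample for a weaker knockdown and does not say which controls it kept. It describes that sample as the latest in time and of higher passage. Time in culture and loss of the knockdown therefore cannot be told apart in it. Knockdown 1 and 2 against control 1 and 2, of the same replicate numbers, was chosen here as the main comparison. All 6 libraries and the difference of replicate 3 were tested beside it. With control 3 added to the main comparison, edgeR called 704 of 15922 genes at an adjusted p under 0.05, against 2114 of 15596 without it.

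GRHL3 and EHF were the members with the clearest difference, and they went in opposite directions. GRHL3, a grainyhead-like factor of squamous and barrier epithelium, had 1087 counts in knockdown 1 and 1055 in knockdown 2, and 0 counts in all 3 controls and in the library labelled knockdown 3. EHF, an ETS factor of glandular epithelium, showed the reverse, with 312, 156 and 728 counts in controls 1, 2 and 3, 0 in knockdown 1 and knockdown 2, and 302 in the library labelled knockdown 3. In normalized units GRHL3 stood at 30.03 and 22.48 CPM in knockdown 1 and 2. EHF stood at 11.0, 5.62 and 22.8 CPM in controls 1, 2 and 3 and at 7.08 CPM in the library labelled knockdown 3. For both genes the libraries with low PPP2R1A did not overlap any other library. How many of all genes separate in this way was not counted, so it is not shown to be particular to these 2. Of 14357 genes compared over the 6 libraries, 105 had a Pearson's r of log2 CPM over 0.99 with GRHL3 and 34 with EHF.

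Taken over replicates 1 and 2, GRHL3 was at least 483-fold higher in the knockdown cells (26.3 ± 5.34 CPM against 0, SD, n = 2 each), and EHF was at least 231-fold lower (0 against 8.30 ± 3.79 CPM, SD, n = 2 each). Both bounds set the group at 0 to 3 counts over its 2 libraries. edgeR's quasi-likelihood test called GRHL3 higher (adjusted p = 0.0156) and EHF lower (adjusted p = 0.0268), with Benjamini-Hochberg adjustment over 15596 genes. GRHL3 passed the filter on low counts only through the knockdown libraries and EHF only through the controls. A difference was thus built into the choice of both. The fitted log2 fold changes of 12.84 (SE 0.531) and -11.18 (SE 0.907) depend on the prior count that stands in for 0. In bulk RNA a change in the number of cells that express a gene and a change in RNA per cell cannot be told apart. With any 1 of the 4 libraries left out neither call was kept, and edgeR called no gene of the whole table. The adjusted p of GRHL3 then ran from 0.0617 without control 1 to 0.0654 without control 2, and that of EHF from 0.0718 without control 1 to 0.0837 without knockdown 2. The library names of the 2 groups share a number that may mark a common collection time, and a replicate block in edgeR gave an adjusted p of 0.0630 for GRHL3 and of 0.0657 for EHF, so neither passed.

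**Figure D1:**
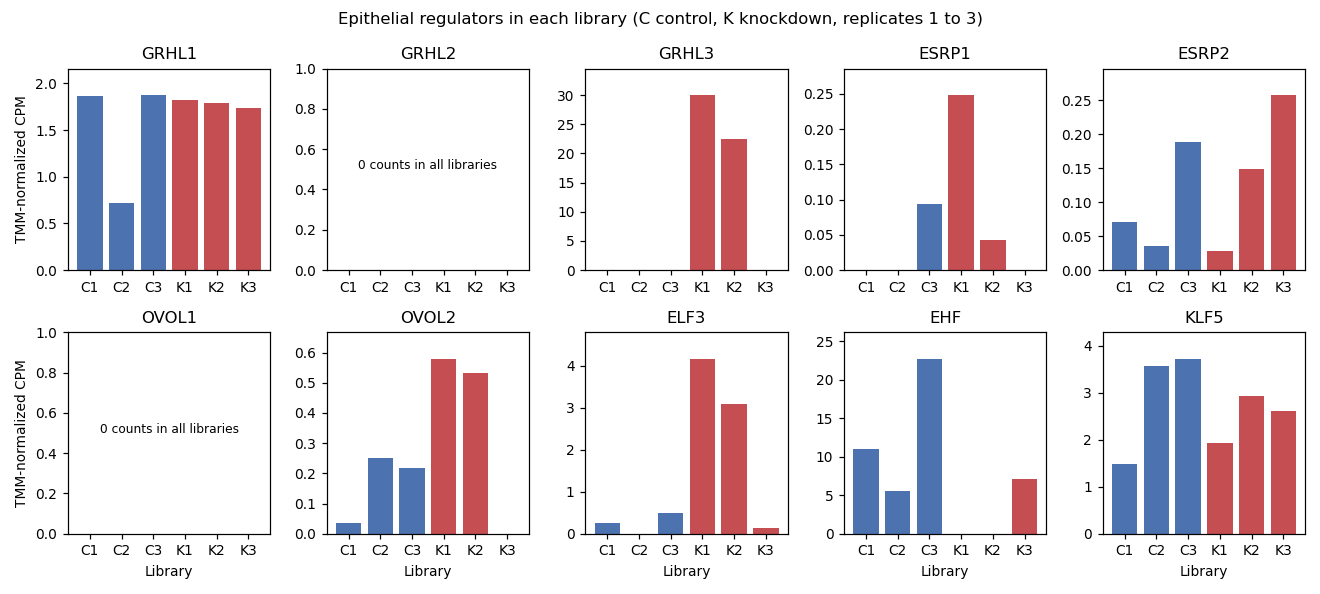
TMM-normalized CPM (vertical axis, linear and scaled to each gene) of the 10 regulators in each library (C control in blue, K knockdown in red, 1 bar per library, numbers are replicates). GRHL3 is present in knockdown 1 and 2 alone at 30.03 and 22.48 CPM, EHF is at 0 in those same 2 libraries, and GRHL2 and OVOL1 have 0 counts throughout.

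RefSeq promoter windows of GRHL3, ELF3 and EHF (the first of its 2 start sites), the members with the largest fold changes, are shown because the EMT repressors named above act at promoter E-boxes. Each window runs from 250 bases before to 50 bases after a start site on the GRCh38.p14 build, and 5 of the 10 members (GRHL1, GRHL3, ELF3, EHF and KLF5) had such windows, 8 in all. GRHL2, ESRP1, ESRP2, OVOL1 and OVOL2 had none in the table used. Capitals mark the E-box CACCTG and AACCGG, a partial grainyhead site, both searched on both strands, and the 2 motifs did not overlap. The first GRHL3 start site lies in chr1:24319107-24319406 on the plus strand, the second in chr1:24322790-24323089 on the plus strand, ELF3 in chr1:202010337-202010636 on the plus strand, and the first EHF start site in chr11:34624007-34624306 on the plus strand.
GRHL3 start 1: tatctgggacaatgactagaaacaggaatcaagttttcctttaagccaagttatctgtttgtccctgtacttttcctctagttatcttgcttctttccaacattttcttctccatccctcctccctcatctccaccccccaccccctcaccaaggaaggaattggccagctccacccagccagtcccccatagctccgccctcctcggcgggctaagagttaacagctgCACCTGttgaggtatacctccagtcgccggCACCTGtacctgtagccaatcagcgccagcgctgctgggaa
GRHL3 start 2: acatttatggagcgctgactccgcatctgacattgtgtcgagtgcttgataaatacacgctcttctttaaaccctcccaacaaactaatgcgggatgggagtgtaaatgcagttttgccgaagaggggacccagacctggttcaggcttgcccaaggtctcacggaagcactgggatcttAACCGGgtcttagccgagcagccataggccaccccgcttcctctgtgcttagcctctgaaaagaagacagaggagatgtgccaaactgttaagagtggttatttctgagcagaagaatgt
ELF3: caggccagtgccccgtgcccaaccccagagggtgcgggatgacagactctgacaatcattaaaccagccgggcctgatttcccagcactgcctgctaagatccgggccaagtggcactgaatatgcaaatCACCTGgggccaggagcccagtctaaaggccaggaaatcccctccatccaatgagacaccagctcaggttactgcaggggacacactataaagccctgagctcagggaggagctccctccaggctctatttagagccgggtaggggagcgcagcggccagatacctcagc
EHF start 1: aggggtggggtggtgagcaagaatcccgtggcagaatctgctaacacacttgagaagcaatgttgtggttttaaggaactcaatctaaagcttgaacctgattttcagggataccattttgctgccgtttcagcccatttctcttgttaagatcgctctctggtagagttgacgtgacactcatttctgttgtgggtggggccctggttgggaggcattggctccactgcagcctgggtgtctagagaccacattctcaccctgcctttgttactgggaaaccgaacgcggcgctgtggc

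The first GRHL3 window held 2 E-boxes, at positions -21 and 10 from the start base, and the ELF3 window held 1 at -120. The second GRHL3 window held 1 partial grainyhead site at -70. Neither window of EHF or KLF5 and not the window of GRHL1 held either motif. Of 35116 promoter windows of the same length, 20.6% held the E-box, 3.49% held it at least 2 times and 7.23% held the partial grainyhead site, so a single match is common. A match describes letters in a window and not a bound site, and the counts do not tell which start site was used.

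ELF3, the ETS factor related to EHF, had the pattern of GRHL3 at a lower level. It had 7, 0 and 16 counts in controls 1, 2 and 3, 151 and 145 in knockdown 1 and 2, and 6 in the library labelled knockdown 3. These counts correspond to 0.246, 0 and 0.501 CPM in the controls, 4.17 and 3.09 CPM in knockdown 1 and 2, and 0.141 CPM in the library labelled knockdown 3. Knockdown 1 and 2 thus stood above all other libraries, again without a count of how many genes do so. Of 14357 genes, 23 had a Pearson's r of log2 CPM over 0.99 with ELF3. The means over replicates 1 and 2 were 0.123 ± 0.174 and 3.63 ± 0.765 CPM (SD, n = 2 each), and the log2 fold change was 4.82 (SE 1.03). This missed the threshold in edgeR (adjusted p = 0.0596), while DESeq2 called it (adjusted p = 3.11e-04). Of 15596 genes DESeq2 called 3700 and edgeR 2114. ELF3 and EHF, close relatives within the ETS family, thus had fold changes of opposite sign.

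OVOL2, a repressor of ZEB1, had few counts. It had 1, 7 and 7 in controls 1, 2 and 3, 21 and 25 in knockdown 1 and 2, and 0 in the library labelled knockdown 3. Its mean level was 0.144 ± 0.153 CPM in controls 1 and 2 and 0.556 ± 0.0335 CPM in knockdown 1 and 2 (SD, n = 2 each). The log2 fold change of 1.92 (SE 0.785) did not pass edgeR's test (adjusted p = 0.190). The table puts OVOL2 in 1 assembled locus with SNX5 and SNORD17, so some of its reads may belong to those genes. OVOL1, its paralog, stayed at 0 counts, which allows at most 0.0639 to 0.108 CPM per library (3 counts, counting error only).

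GRHL1 and KLF5 were present in every library and did not differ detectably between the groups. GRHL1 had 53, 20 and 60 counts in controls 1, 2 and 3 and 66, 84 and 74 in knockdown 1, 2 and 3. Apart from control 2 at 0.720 CPM, its libraries lay within 1.73 to 1.88 CPM. Its log2 fold change over replicates 1 and 2 was 0.47 (SE 0.507, edgeR adjusted p = 0.580), and it was -0.05 without control 2. KLF5 had 42, 99 and 119 counts in the controls and 70, 137 and 111 in the knockdown libraries, or 1.48 to 3.72 and 1.93 to 2.92 CPM, ranges that overlap. Its log2 fold change was -0.06 (SE 0.527, edgeR adjusted p = 0.948), with a sign that depended on the settings. GRHL2, the grainyhead-like gene most tied to simple epithelium, had 0 counts in every library, under the same limit as OVOL1.

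The splicing factors were close to the limit of detection. ESRP1 had 0, 0 and 3 counts in controls 1, 2 and 3 and 9, 2 and 0 in knockdown 1, 2 and 3. ESRP2 had 2, 1 and 6 counts in the controls and 1, 7 and 11 in the knockdown libraries. Both stayed at or under 0.258 CPM and did not enter the test. Over replicates 1 and 2 the 11 ESRP1 counts were at least 2.48-fold higher than the floor of 3 counts, and 9 of the 11 came from knockdown 1. The ESRP2 ratio was 1.80 with an exact 95% counting interval of 0.433 to 10.6, so no difference was detectable at this depth. The table places ESRP2 in a locus with MIR6773.

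Compared per length, as CPM per kb of annotated exon, the members differed widely in level. In the controls EHF led with 1.28 to 5.19 CPM per kb, followed by KLF5 with 0.380 to 0.956 and GRHL1 with 0.0906 to 0.236, and these 3 ranges did not overlap. OVOL2 (0.0162 to 0.116) overlapped GRHL1, and ELF3 (0 to 0.0696) overlapped OVOL2. In knockdown 1 and 2 the order was led by GRHL3 with 7.62 and 5.71 CPM per kb, then KLF5 with 0.497 and 0.750 and ELF3 with 0.580 and 0.430, which overlapped, then OVOL2 with 0.267 and 0.245 and GRHL1 with 0.229 and 0.225. EHF, first in the controls, was at 0 there. Summed over the 10 members, the level was 14.7, 10.2 and 29.4 CPM in controls 1, 2 and 3, most of it EHF, and 38.8 and 31.0 CPM in knockdown 1 and 2, most of it GRHL3. It was 11.8 CPM in the library labelled knockdown 3, and control 3 lay close to knockdown 2.

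In total 6 of the 10 members entered the test of replicates 1 and 2. edgeR called 1 higher, where 7.15% of all tested genes were called higher, and 1 lower, where 6.41% of all tested genes were called lower. Over all genes this was 1115 higher and 999 lower, and 1406 and 744 without TMM, where the same 2 members were called. GRHL3, ELF3 and OVOL2 passed the filter on low counts only through the knockdown libraries and EHF only through the controls, so for these 4 a difference was built into the choice, and the counts describe single genes and not the members as a group. GRHL1 and KLF5 passed in both groups.

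Replicate 3 did not repeat the pattern. The log2 ratio of the knockdown to the control library of the same number, with a prior count of 2, was 9.07, 8.65 and 0 for GRHL3 in replicates 1, 2 and 3, where the last has 0 counts on both sides. For ELF3 it was 3.81, 5.81 and -1.50, for OVOL2 2.80, 0.93 and -2.29, and for ESRP1 2.44, 0.81 and -1.42, each with the opposite sign in replicate 3. For EHF it was -7.62, -6.66 and -1.68, so EHF was lower in the knockdown library at every number. Control 3 had the highest EHF level of all libraries, and the EHF level of the library labelled knockdown 3 (7.08 CPM) lay between those of controls 1 and 2. GRHL1, KLF5 and ESRP2 had ratios between -0.60 and 1.25 throughout.

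**Figure D2:**
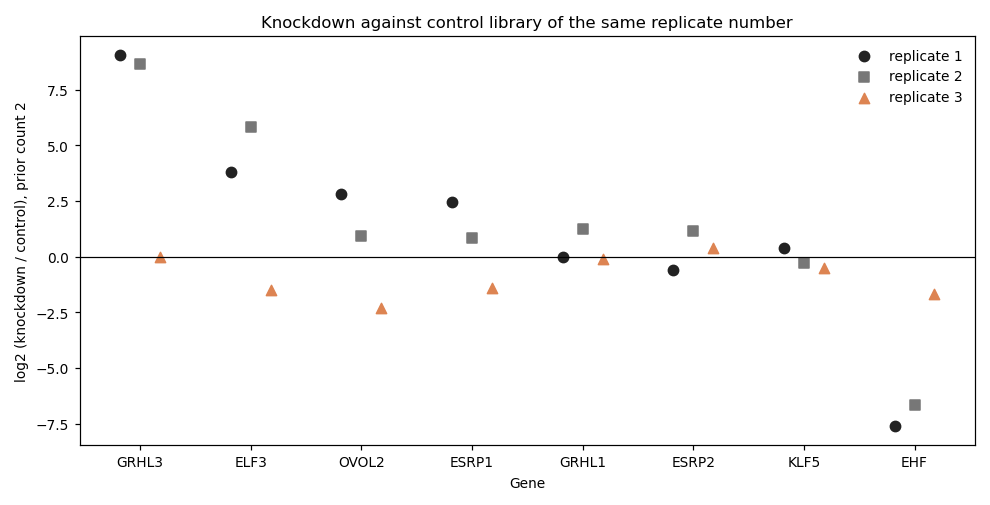
Log2 ratio of each knockdown library to the control library of the same number (vertical axis, prior count of 2 scaled to library size) for the 8 members with counts, 1 symbol per replicate. GRHL3, ELF3, OVOL2 and ESRP1 lie above 0 in replicates 1 and 2 and at or below 0 in replicate 3, and EHF lies below 0 in all 3.

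The difference between the knockdown effect at replicate 3 and that at replicates 1 and 2 was tested with edgeR, with the single libraries of replicate 3 assumed to vary like the rest. None of the 6 members tested was called, where 3.64% of 16967 genes were. Of the members 3 (EHF, ELF3 and OVOL2) had an unadjusted p under 0.05 in edgeR, as did 4468 of all genes. DESeq2 called 3 members (EHF, ELF3 and GRHL3) and 2347 of all 16967 genes. The difference was 9.53 on the log2 scale for EHF (SE 1.25, edgeR adjusted p = 0.0687), -6.62 for ELF3 (SE 1.79, adjusted p = 0.120) and -7.91 for OVOL2 (SE 2.35, adjusted p = 0.141), where the values for EHF and OVOL2 depend on the prior count since a library group was at 0. For GRHL3 edgeR gave no usable value, as both libraries of replicate 3 were at 0.

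With all 6 libraries, 4 members passed the filter and edgeR called 0 of them, where 0.0065% of 15386 genes, a single gene, were called. None had an unadjusted p under 0.05 in edgeR, and DESeq2 and limma-voom called 0. The log2 fold change was 3.27 for ELF3 (SE 1.43, edgeR adjusted p = 0.581) and -2.47 for EHF (SE 1.99, adjusted p = 0.666), and GRHL3 did not enter this test. Without the library labelled knockdown 3, GRHL3 and EHF were both called by edgeR (smallest adjusted p = 0.0182), as were 704 of 15922 genes. This is the same fit as all 3 controls against knockdown 1 and 2. The call of EHF thus turned on this library, while GRHL3 entered the test without it.

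Genes beside GRHL3, EHF and ELF3 on the chromosome were looked at for changes of their own, and of those named here NIPAL3 alone was called. Of the 2 tested genes on either side of GRHL3, PNRC2 (-0.17, edgeR adjusted p = 0.303), SRSF10 (0.01, adjusted p = 0.953) and STPG1 (0.55, adjusted p = 0.135) did not pass, while NIPAL3, a probable magnesium transporter, rose by 1.03 on the log2 scale (adjusted p = 0.0336). LINC02800, a noncoding RNA next to GRHL3, had 12 counts in each of knockdown 1 and 2 and 0 elsewhere. None of the 4 tested neighbours of EHF (ABTB2, CAT, APIP and PDHX) was called, nor was RNPEP, ELF3-AS1 or UBE2T beside ELF3. The median log2 fold change of the 100 nearest tested genes was 0.02 for GRHL3, 0.10 for EHF and -0.13 for ELF3. ELF3-AS1, the antisense partner of ELF3, had 100, 156 and 53 counts in the controls and 218, 176 and 85 in the knockdown libraries (log2 fold change 0.09, adjusted p = 0.900), and without stated strand use reads of the 2 cannot be told apart.

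Relatives of the members were called in both directions. Among 21 relatives from the TFCP2, OVOL, ELF and KLF families, 16 were tested, and 3 rose (18.8%, against 7.15% of all tested genes), 1 fell (6.25%, against 6.41%) and 12 did not pass edgeR's test. The median log2 fold change of the 15 that passed the filter in both groups was -0.12. KLF4, a Krüppel-like factor of differentiating epithelium, stood at 11.5 and 15.6 CPM in controls 1 and 2 and at 83.3 and 94.7 CPM in knockdown 1 and 2, a rise of 2.71 on the log2 scale (SE 0.203, adjusted p = 0.0161), and at 13.99 and 11.72 CPM in control 3 and the library labelled knockdown 3. TFCP2L1, a cousin of the grainyhead factors, rose by 1.00 (adjusted p = 0.0354), and the ETS factor ELF2 rose by 0.81 (adjusted p = 0.0451). KLF11, a repressor downstream of TGF-beta, fell by 1.01 (adjusted p = 0.0376). ELF5 and SPDEF, the other epithelial ETS factors, had 6 counts in control 3 and 0 counts in every library, respectively.

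Genes listed as epithelial targets of grainyhead, OVOL and ETS factors, junction and polarity genes among them, were called in both directions. Action of these factors on each gene was not tested. The list was chosen with earlier results of these data known. Of 45 such genes 25 were tested, and 9 rose (36.0%, against 7.15% of all tested genes), 1 fell (4.0%, against 6.41%) and 15 did not pass in edgeR. DSG2, PKP3, SPINT2, CLDN4, CGN and GRB7 were the 6 called, all higher, among the 18 that passed the filter on low counts in both groups. Of the 13838 genes of the table that passed in both groups, 832 were called higher and 862 lower. Over these 18 the median log2 fold change was 0.35, against -0.01 over the 13838 such genes of the table. Another 6 (AP1M2, CDH3, CDS1, EPN3, PKP2 and TJP3) passed only through the knockdown libraries and EPS8L1 only through the controls. For these a difference was built into the choice. The called PKP2, CDH3, TJP3 and EPS8L1 are among them. SPINT2, a membrane-bound protease inhibitor, stood at 2.89 and 1.98 CPM in controls 1 and 2 and at 95.3 and 87.9 CPM in knockdown 1 and 2 (log2 fold change 5.23 with SE 0.241, adjusted p = 0.0114). CLDN4, a tight junction claudin, stood at 6.158 and 7.997 against 119.2 and 101.9 CPM (3.96 with SE 0.205, adjusted p = 0.0118). PKP2, a desmosome plakophilin, had 2 counts over controls 1 and 2 and 7867 over knockdown 1 and 2, a ratio of 2658 with an exact 95% counting interval of 736 to 21960 (adjusted p = 0.0120). The desmosomal cadherin DSG2 rose by 1.36 (SE 0.104, adjusted p = 0.0161).

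The other called targets, named after their values were seen, were PKP3, CGN, CDH3, TJP3 and GRB7, which rose by 1.04 to 2.51, and EPS8L1, which fell by 1.84. CDH1, the core epithelial cadherin, had too few counts for a test, with 0 in all controls, 2 and 6 in knockdown 1 and 2, and 0 in the library labelled knockdown 3. EPCAM, the epithelial adhesion molecule, had 1 count in all, and RAB25, SPINT1, PROM2 and MAL2 had 0. In the library labelled knockdown 3 SPINT2, PKP2 and CLDN4 stood at 1.92, 0 and 6.66 CPM, within or near the range of controls 1 and 2. In control 3 the same 3 genes stood at 37.0, 34.7 and 16.7 CPM, above controls 1 and 2, whereas DSG2, GRB7 and CDH3 stood at 7.73, 1.44 and 0.188 CPM, below both. GRHL3 was at 0 and ELF3 at 0.501 CPM in control 3. With all 3 controls set against knockdown 1 and 2, edgeR called 2 of the 26 target genes tested. Calls over all genes fell as well, from 2114 of 15596 to 704 of 15922.

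**Figure D3:**
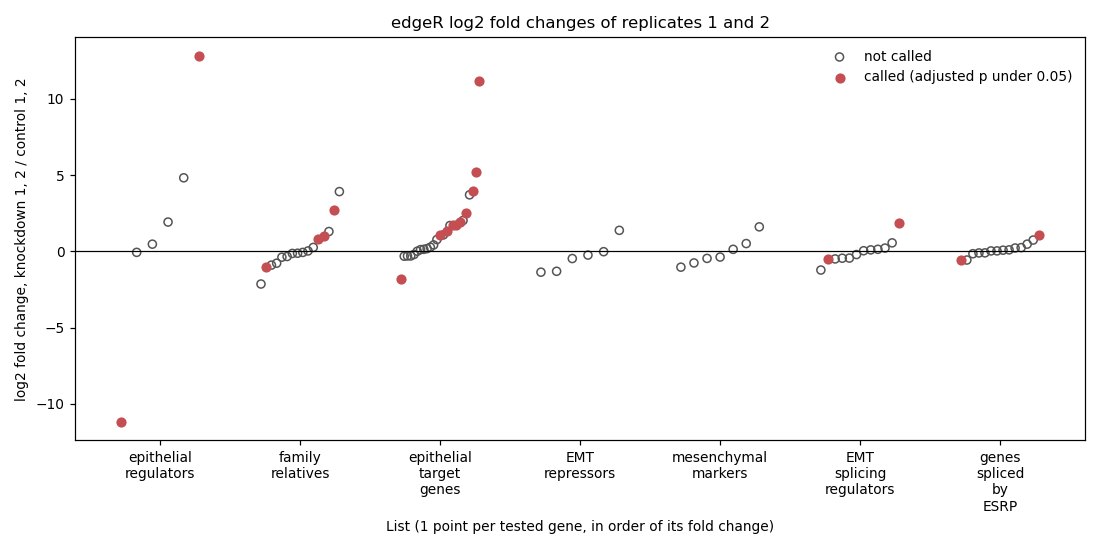
edgeR log2 fold change of knockdown 1 and 2 against control 1 and 2 (vertical axis) for each tested gene of 7 lists, in order within a list, with called genes as filled points. Values of genes at or near 0 in a group, such as GRHL3, EHF and PKP2, depend on the prior count. Of the 6 regulators GRHL3 and EHF are called, 9 of 25 target genes are called higher, and no EMT repressor or mesenchymal marker is called. PKP2, CDH3 and TJP3 among the 9, and GRHL3, passed the filter on low counts only through the knockdown libraries, and EHF only through the controls.

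The opposing side of the circuit gave too few tested genes to set 0 calls apart from the share of all genes (7.15% higher and 6.41% lower). Of 12 EMT repressors 6 were tested and edgeR called 0, although 4 had an unadjusted p under 0.05, and DESeq2 and edgeR with library size alone each called 1. Of all 15596 genes 5128 had such a p in edgeR, DESeq2 called 3700 and edgeR with library size alone 2150. ZEB1, a known target of OVOL2, stood at 53.8 and 41.8 CPM in controls 1 and 2 and at 34.8 and 34.5 CPM in knockdown 1 and 2 (log2 fold change -0.47 with SE 0.159, adjusted p = 0.139). The 100 nearest tested genes of ZEB1 had a median of -0.414, close to its own value. Action of OVOL2 on ZEB1 was not tested. SNAI2 had -1.30 (adjusted p = 0.114), GSC -1.36 (adjusted p = 0.120) and SNAI3 1.38 (adjusted p = 0.0524). Their nearest tested genes had medians of 0.104 for SNAI2, 0.083 for GSC and 0.219 for SNAI3. GSC passed the filter on low counts only through the controls, so for it a difference was built into the choice. ZEB2, TWIST1, TWIST2 and PRRX1 had 0 counts in every library. The median of the 5 that passed the filter in both groups was -0.24.

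Mesenchymal markers gave a similar count. Of 12 markers 7 were tested and 0 called in edgeR, 1 with an unadjusted p under 0.05 and 1 called by DESeq2. VIM, which encodes the intermediate filament vimentin, stood at 7346 and 9944 CPM in controls 1 and 2 and at 3743 and 4757 CPM in knockdown 1 and 2 (-1.03 with SE 0.214, adjusted p = 0.0570). S100A4 had -0.46 (adjusted p = 0.168), AXL -0.37 (adjusted p = 0.170) and FN1 0.51 (adjusted p = 0.384). The median of the 100 nearest tested genes was -0.317 for VIM, -0.249 for S100A4, -0.014 for AXL and 0.621 for FN1. The mesenchymal cadherin CDH2 had 0 counts in every library.

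Around the ESRP genes the share of calls was near that of all genes (7.15% higher and 6.41% lower). Among 16 regulators of EMT splicing 12 were tested, 1 was called in each direction (8.33% each) and 10 did not pass in edgeR. RBM24 rose by 1.88 (SE 0.241, adjusted p = 0.0287), and QKI, which promotes mesenchymal exons, fell by 0.50 (SE 0.0839, adjusted p = 0.0401). The median log2 fold change of the nearest tested genes was -0.385 for QKI (72 genes) and -0.276 for RBM24 (100 genes). The fall of QKI was thus in large part shared by its neighbours. MBNL1 had -0.44 (adjusted p = 0.152) and CELF1 -1.22 (adjusted p = 0.155). All 14 genes on the list of ESRP exon targets were tested, again with 1 called in each direction (7.14% each). RALGPS2 rose by 1.08 (adjusted p = 0.0319), SLK fell by 0.57 (adjusted p = 0.0312) and 12 did not pass, CSF1 (-0.57, adjusted p = 0.101) and NUMB (0.25, adjusted p = 0.258) among them. The median of the 100 nearest tested genes was -0.23 for RALGPS2 and -0.257 for SLK. Gene counts hold no information on exon use, which is what ESRP proteins change. The 8 loci of the miR-200 and miR-205 families, which ZEB1 represses, gave 0 counts in 7 and 2 and 3 counts of MIR200CHG in knockdown 1 and 2, and mature miRNAs are not measured by this kind of library.

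Epithelial keratins and markers of other cell types moved with the members in part. KRT8 and KRT18, the simple epithelial keratins, rose by 2.67 (adjusted p = 0.0118) and 2.40 (adjusted p = 0.0133), whereas KRT19, the ductal keratin, fell by 1.71 (adjusted p = 0.0268). KRT7 had 3 counts over controls 1 and 2 and 154 over knockdown 1 and 2, a ratio of 34.7 with an exact 95% counting interval of 11.7 to 170 (edgeR adjusted p = 0.0543). KRT7 passed the filter on low counts only through the knockdown libraries, so for it a difference was built into the choice. The 4 keratins together stood at 1386 and 1637 CPM in controls 1 and 2, 8081 and 9297 CPM in knockdown 1 and 2, and 4061 and 1367 CPM in control 3 and the library labelled knockdown 3.

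**Figure D4:**
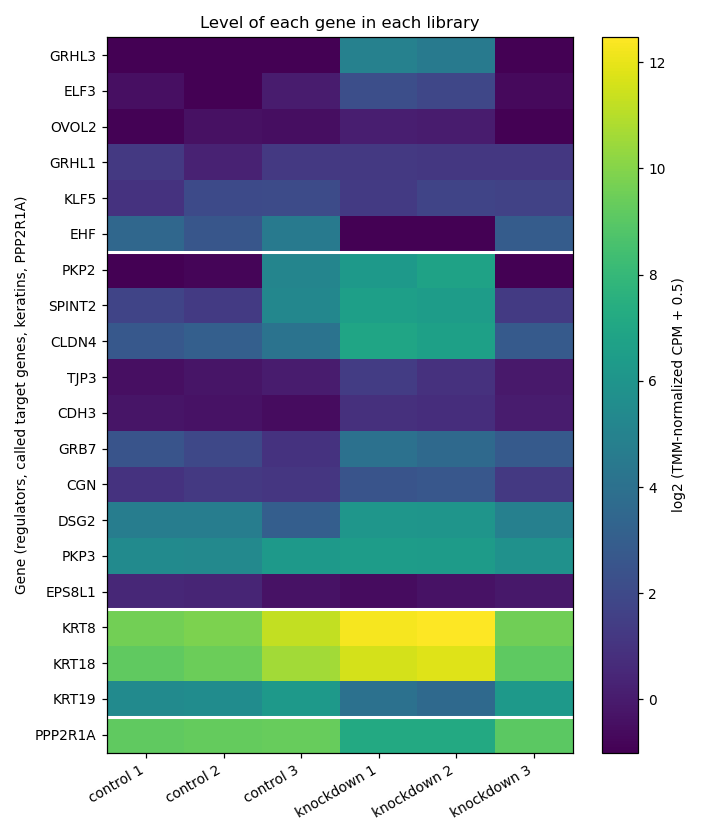
Level of 6 members, the 10 called target genes, 3 keratins and PPP2R1A (rows) in each library (columns) as log2 of CPM plus 0.5 (colour). GRHL3 and ELF3 are high and EHF is low in the 2 libraries with PPP2R1A at 143 CPM, and PKP2 and SPINT2 are higher and DSG2 is lower in control 3 than in controls 1 and 2.

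Keratinocyte markers were seen in part. KRT5 was at least 71.9-fold higher (0 against 120 and 199 counts, edgeR adjusted p = 0.02004) and TP63 rose by 1.27 (adjusted p = 0.0354). In contrast, KRT10 had 0.04 (adjusted p = 0.879), KRT14 had 3 counts in control 2 and 0 elsewhere, and KRT1, DSG3 and IVL were at 0. The 7 keratinocyte genes found of 8 summed to 101.4, 100.5 and 103.5 CPM in controls 1, 2 and 3 and to 239, 184 and 143 CPM in knockdown 1, 2 and 3. Of 7 fibroblast markers COL3A1 rose by 3.03 (adjusted p = 0.0120) and COL1A1 had 2.06 (adjusted p = 0.352), with LUM and FAP at 0. KRT5 and COL1A1 passed the filter on low counts only through the knockdown libraries, so for these a difference was built into the choice. The fibroblast markers summed to 11.8, 12.4 and 59.1 CPM in controls 1, 2 and 3 and to 109, 86.3 and 14.9 CPM in knockdown 1, 2 and 3.

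Of 6 endothelial markers CDH5 rose by 4.17 (adjusted p = 0.0172) and VWF was at least 27.3-fold higher (adjusted p = 0.0252), with PECAM1, KDR, TEK and EMCN at 0. Their sum was 2.96, 2.31 and 0 CPM in controls 1, 2 and 3 and 60.7, 37.6 and 3.68 CPM in knockdown 1, 2 and 3. Of 8 acinar, 6 islet and 7 haematopoietic markers only CD14 had enough counts for the test (edgeR adjusted p = 0.123). VWF passed the filter on low counts only through the knockdown libraries and CD14 only through the controls. For both a difference was built into the choice. The acinar, islet and haematopoietic lists each summed to under 1 CPM in controls 1 and 2 and in the knockdown libraries. PTPRC, CD3E and HBB were at 0 throughout, while LYZ had 174 counts in control 3 and 0 elsewhere. The part of other cells in the members' values was not tested beyond these levels.

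Genes with a level pattern most like that of a member over the 6 libraries were looked up among 14357 genes, by Pearson's r of log2 CPM, as a description over 6 points that share their libraries. For GRHL3 the closest were LINC01091 (r = 0.9999), CDH13 (r = 0.9998) and NR5A2 (r = 0.9998), and 105 genes had r over 0.99. NR5A2, a nuclear receptor of pancreatic acinar cells, had 4467 and 3434 counts in knockdown 1 and 2 and at most 1 in any other library. For ELF3 the closest were STK38L (r = 0.9979), BMI1 (r = 0.9974) and NECAB2 (r = 0.9959). For EHF they were PMEPA1 (r = 0.9979), RNF182 (r = 0.9975) and HDAC9 (r = 0.9975), of which RNF182 shared with EHF the count of 0 in knockdown 1 and 2 against 853 and 458 in controls 1 and 2.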

How the data were processed

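RNA from MiaPaCa2-CasRx cells was made into TruSeq libraries by the authors, and the deposited values are whole-number counts per gene for 6 libraries. Per the labels, whose processing notes name FastQC, STAR and StringTie, the authors made the counts with these tools. Versions, settings, genome build, annotation and use of strand: not given in the sources used here. StringTie counts derive from coverage and are taken as estimates of reads.

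Of 42540 rows, 17321 were at 0 in all libraries, and 159 exact repeats of a row with the same gene and counts were left out. The groups came from the sample titles. Testing used edgeR 4.0.16 under R 4.3.3, with filterByExpr, TMM and the quasi-likelihood F test, adjusted by Benjamini-Hochberg over all tested genes with a threshold of 0.05. DESeq2 1.42.0, limma-voom (limma 3.58.1), other scalings and filters, a replicate block and each library left out in turn were run as alternatives. The edgeR scripts were checked on simulated data. A floor is 3 counts, and floors and intervals speak of counting error alone. Python 3.11.15 and pandas 2.3.3 prepared the tables. Exon lengths are unions of GENCODE exons, and promoter windows and gene neighbours are from RefSeq, matched by symbol.

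All 10 members are named, with up to 4 genes per list that have the smallest p among those with at least 1 CPM in 1 library, plus CDH1, ZEB1, VIM and PPP2R1A. For each member with at least 1 CPM in 1 library and a range of at least 2 on the log2 scale, the 3 genes with the most similar pattern are named. The members and the lists were chosen with earlier results of these data known. The main test has no block. Numbers shared by the library names may mark common collection times, which the labels do not state, and libraries with the same number did not deviate together. The results of 2 other genes are not reported here.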

Additional observations from a re-analysis of the deposited data

Results flagged for a closer look

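The results here were picked because the knockdown effect at replicate 3 differed from that at replicates 1 and 2, by edgeR's interaction test at an adjusted p under 0.05 except for ESRP1. The single libraries of replicate 3 are assumed to vary like the others. edgeR called 618 of 16967 genes in this test, 0 with the replicate number as a block, 0 without control 1, control 2 or knockdown 1, and 54 without knockdown 2. Among the target genes the difference was -5.28 on the log2 scale for CLDN4, -9.48 for SPINT2 and -1.51 for PKP3. For PKP2 the fitted value of -24.48 comes from libraries at 0 and is no measure of size. KLF4, the relative that rose in replicates 1 and 2, had a difference of -2.96. Among the splicing genes it was -4.24 for RBM24 and -2.38 for CSF1, where control 3 had 3353 counts of CSF1 against 414 and 415 in controls 1 and 2. The keratins KRT8 and KRT18 had -4.37 and -3.89, and the collagen gene COL3A1 had -5.08. ESRP1, with too few counts for a test, was higher in the knockdown library in replicates 1 and 2 and lower in replicate 3, where its log2 ratio was -1.42, and this difference was not tested.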

How the results depend on the processing

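The 2 calls of replicates 1 and 2, GRHL3 and EHF, were kept by edgeR with library size alone, with median-of-ratios size factors, without the filter, with repeated rows kept, with rows of a symbol summed and with all 3 controls, and by DESeq2 and limma-voom. With the replicate block 0 members were called, and leaving out 1 library in turn gave 0 to 0. Equal replicate numbers did not deviate together (r of 0.00233 for number 1, -0.0195 for number 2 and -0.115 for number 3, and 0.095 over replicates 1 and 2 only), and the block left 0 calls of any gene, also 0 among family relatives, target genes, EMT splicing regulators and genes spliced by ESRP, for which leaving out a library gave 0 to 0 as well. For all 6 libraries the count of members ran from 0 to 2, with 2 without knockdown 3, which is the same fit as that with all 3 controls. For the difference at replicate 3 DESeq2 called 3 members in place of 0, and 2347 of all genes in place of 618. Over replicates 1 and 2, edgeR called 2114 of all genes, 1380 without the filter and 704 with all 3 controls, and DESeq2 called 3700. Family relatives numbered 4 by edgeR, 2 without the filter, 8 by DESeq2 and 1 with all 3 controls. Target genes numbered 10, and 2 with all 3 controls. EMT repressors numbered 0, 1 with library size alone and 1 by DESeq2, and mesenchymal markers 0 and 1 by DESeq2. EMT splicing regulators numbered 2, 1 with library size alone, 1 without the filter and 0 with all 3 controls, and genes spliced by ESRP 2, 1 without the filter and 0 with all 3 controls. KLF5 changed sign, to 0.082 with library size alone, 0.062 by limma-voom, 0.028 with the replicate block and -0.57 to 0.71 with a library left out. GRHL1 ran from -0.047 to 1.31 with a library left out. The median log2 fold change over all tested genes was 0.15 with library size alone. The cause of these differences was not tested. ESRP1, ESRP2, GRHL2 and OVOL1 were limited by depth.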
